A study of Meloidogyne incognita with 6 samples.

Results

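The root-knot nematode Meloidogyne incognita was profiled in its second juvenile stage (J2), and 90 of the 20365 gene rows measured stood next to another row, by ID number, that changed in the same direction between the early and the middle stage of the J2. Of these, 46 were higher and 44 were lower in middle J2. They form 41 runs of consecutive IDs, most of them pairs. The members were chosen on the measured values of this same comparison. Rows with a final lower-case letter in the ID were set aside, and the 300 rows with the highest mean were dropped, which left 18133. A candidate had a ratio of mean levels, (middle FPKM + 1) / (early FPKM + 1), of 2 to under 4 in either direction, with no overlap between the early and the middle libraries. A member was a candidate whose ID number lay 1 above or below that of another candidate with the same direction. The size of the changes and the gaps between the stages therefore describe the choice and are not tested here.

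The study holds 6 libraries of total RNA from wild-type animals, 3 from early J2 and 3 from middle J2, all of the same species. How early and middle were told apart is not stated in the labels, and neither is whether replicates were grown separately, so the spread between libraries may be technical. Values are FPKM, that is fragments per kilobase of gene model and per fixed number of counted reads, so levels of different rows are set side by side on a scale per length. The reads per library, recovered from the steps of the FPKM values, ranged from 5305983 to 7436406.

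J2 are the infective, free-living stage of root-knot nematodes: after hatching they seek out a host root and invade it, living on stored reserves. In the related model nematode Caenorhabditis elegans, part of the genes lie in operons, in which neighbouring genes are transcribed from a shared promoter and the transcripts are separated by trans-splicing. Genes that arose by tandem duplication also lie side by side in many genomes. Meloidogyne incognita reproduces without meiosis, and its genome holds diverged copies of many genes. The table gives IDs that start with Minc and no symbol, product or position. Whether consecutive numbers stand for neighbouring genes on the same strand was therefore not tested, reads shared between near-identical copies could not be separated, and gene functions are not analysed here.

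The candidate rule picked 344 rising rows (1.9% of the 18133 kept) and 283 falling rows (1.56%), 627 in all (3.46%). The 90 members are 14.4% of these candidates. They are 13.4% of the rising and 15.5% of the falling ones. The 46 rising members formed 18 runs of 2 rows, 2 runs of 3 and 1 run of 4. The 44 falling members formed 16 runs of 2 and 4 runs of 3. Together these hold 49 pairs of consecutive rows with the same direction, 25 rising and 24 falling, a count that the rule itself fixes. Consecutive candidates with opposite directions numbered 8 pairs.

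The rising pair named here is the one whose less abundant row had the highest mean level. Minc08906, a gene model of 2677 bases, stood at 68.5, 40.7 and 66.4 FPKM in early replicates 1 to 3 and at 107, 153 and 136 FPKM in middle replicates 1 to 3. Every middle library lay above every early library, and early replicate 2 was the lowest of all. The means were 58.5 ± 15.5 FPKM in the early libraries and 132 ± 23.3 FPKM in the middle libraries (SD, n = 3), on 2994 and 6417 reads. The estimated log2 fold change on the log2(FPKM + 1) scale, middle minus early, was 1.18 with a standard error of 0.21.

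Its partner Minc08907, of 1812 bases, stood at 61.5, 24.5 and 59.6 FPKM in early replicates 1 to 3 and at 122, 284 and 129 FPKM in middle replicates 1 to 3. Early replicate 2 was again the lowest library and middle replicate 2 again the highest, more than 2 times either of the other middle libraries. The means were 48.5 ± 20.8 and 178 ± 91.3 FPKM (SD, n = 3), on 1696 and 5953 reads, and the log2 fold change was 1.85 (standard error 0.42). The row with the higher level was not the same throughout: Minc08906 led in 4 of the 6 libraries. The rows directly before and after this pair had means of 0.170 and 0.796 FPKM, below the 1 FPKM needed for a test.

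The falling pair chosen in the same way was Minc15067 and Minc15068, of 960 and 791 bases. Minc15067 stood at 214, 204 and 228 FPKM in early replicates 1 to 3 and at 63.4, 98.4 and 94.7 FPKM in middle replicates 1 to 3. Minc15068 stood at 180.5, 166 and 182 FPKM in the same early libraries and at 46.0, 89.7 and 79.8 FPKM in the middle ones. Both rows were highest in early replicate 3, lowest in middle replicate 1, and apart between the stages. Minc15067 was the higher row in all 6 libraries, with a level 1.21 times that of its partner over the 6 libraries.

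The stage means were 215 ± 12.0 and 85.5 ± 19.2 FPKM for Minc15067, and 176 ± 8.91 and 71.8 ± 22.9 FPKM for Minc15068 (SD, n = 3). The log2 fold changes were -1.35 with a standard error of 0.16 and -1.33 with a standard error of 0.22. These values rest on 3918 early and 1493 middle reads for the first row, and on 2632 and 1041 for its partner. The row before this pair, at a mean of 187 FPKM, had a ratio of 1.07 in the falling direction, with no overlap of the stages. The row after it, at 41.8 FPKM, had a ratio of 0.920 in that direction, on the other side of no change.

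**Figure D1:**
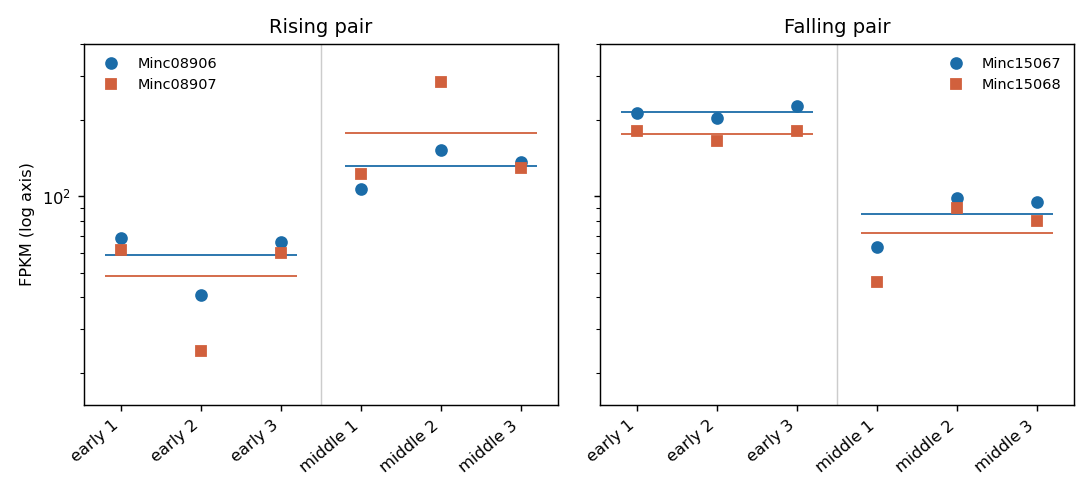
Levels of the named rising pair (left) and falling pair (right) in each of the 6 libraries, in FPKM on a log axis; points are single libraries and horizontal lines are the means of the 3 libraries of a stage. Both rows of the rising pair are lowest in early replicate 2, and both rows of the falling pair are lowest in middle replicate 1.

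The longest run held 4 consecutive rising rows with very different levels. Its first row, a model of 204 bases, stood at 8.49, 2.61 and 5.27 FPKM in early replicates 1 to 3 and at 26.8, 19.5 and 14.5 FPKM in middle replicates 1 to 3. The second row, of 1485 bases, stood at 1.05, 1.31 and 1.90 FPKM in the early libraries and 6.22, 6.19 and 4.75 FPKM in the middle libraries. The third, of 552 bases, was the abundant one, at 48.6, 44.3 and 51.2 FPKM in the early libraries and 223, 209.9 and 144 FPKM in the middle libraries. All 3 of these rows were lowest in replicate 3 among the middle libraries. The fourth row, of 564 bases, went the other way within the middle stage, with 1.67, 2.99 and 3.49 FPKM in replicates 1 to 3 after 0.307, 0.314 and 0.477 FPKM in early J2. It rested on 4 early and 28 middle reads. By mean level the third row stood 33.6 times above the second and 77.9 times above the fourth.

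A run of 3 rising rows kept to a narrow range of levels, with means over the 6 libraries of 4.57, 6.59 and 4.42 FPKM. Its models were long, at 1770, 2709 and 1707 bases. The middle row of the run stood at 4.28, 5.37 and 1.89 FPKM in early replicates 1 to 3 and at 9.95, 8.54 and 9.51 FPKM in middle replicates 1 to 3. In all 3 rows early replicate 2 was the highest and early replicate 3 the lowest early library. The order of the early libraries was thus shared along the run.

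A block of 5 consecutive IDs held a rising pair followed directly by a falling run of 3. The first rising row stood at 3.78, 2.36 and 4.37 FPKM in early replicates 1 to 3 and at 19.6, 21.1 and 9.35 FPKM in middle replicates 1 to 3. Its partner stood at 5.91, 9.41 and 4.58 FPKM in the early libraries and 29.3, 33.7 and 16.2 FPKM in the middle libraries. Middle replicate 3 was the lowest middle library in both rows.

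The row with the next ID number turned the other way, from 18.6, 40.1 and 30.7 FPKM in early replicates 1 to 3 to 7.85, 5.78 and 12.7 FPKM in middle replicates 1 to 3. It was followed by a row at 31.8, 62.4 and 32.8 FPKM in the early libraries and 19.4, 18.1 and 16.5 FPKM in the middle libraries. The last row stood at 92.2, 129 and 104 FPKM in the early libraries and 51.8, 38.4 and 48.6 FPKM in the middle libraries. Early replicate 2 was the highest library in all 3 falling rows. The levels climbed along the IDs, with means of 19.3, 30.2 and 77.4 FPKM.

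Some consecutive rows had nearly equal levels. A falling pair within a run of 3 differed by a factor of 1.01 in mean level, with models of 1123 and 645 bases. The first of them stood at 27.8, 25.6 and 33.2 FPKM in early replicates 1 to 3, and its partner at 27.7, 25.6 and 33.4 FPKM. In middle replicates 1 to 3 they parted, at 12.4, 12.3 and 10.8 FPKM for the first and 11.4, 8.79 and 14.2 FPKM for the other. Those middle values of the pair rest on 238 and 132 reads over the 3 libraries.

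Across all members the levels covered a wide range. The mean over the 6 libraries ran from 0.941 to 167 FPKM in rising members, with a median of 10.2 FPKM, and from 0.653 to 377 FPKM in falling members, with a median of 15.4 FPKM. Candidates without a consecutive partner had medians of 10.2 and 12.0 FPKM, and the 12508 kept rows at or above 1 FPKM had a median of 27.1 FPKM. In rising members the median stage level was 4.57 FPKM in the early libraries and 16.0 FPKM in the middle libraries. In falling members it was 22.2 and 8.15 FPKM. Gene models had median lengths of 711.5 bases in rising and 769 bases in falling members, with a range of 51 to 3900 bases over all members, against a median of 939 bases for the kept rows at or above 1 FPKM. These lengths are the smallest that give whole reads, so those of rows with few reads may be too short.

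The median ratio of stage means in the direction of change, with 1 FPKM added to each, was 2.80 in rising and 2.41 in falling members. It was 2.41 and 2.45 in the candidates without a partner. All of these lie between 2 and 4 because the rule demands it. The lowest ratio inside the lower limit was 2.003, in a falling row. The highest outside it, among rows beside a candidate with the same direction, was 1.996, also in a falling row. At the upper limit the last row inside had a ratio of 3.94 and the first row outside 4.04. Beside candidates with the same direction, 89 further rows without overlap had ratios of 1.5 to under 2, and 25 had ratios of 4 or more.

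The depth behind the members varied with their level. The total over the 6 libraries ran from 4 to 23041 reads per member with a median of 339.5, and 20 of the 90 members had under 100 reads. In 2 members, which form a rising pair, all 3 early libraries were listed at 0, and in 1 falling member all 3 middle libraries were. The levels of these rows set no fold. In the rising pair the middle values were 2.75, 2.55 and 0.342 FPKM for the first row and 1.21, 1.97 and 3.15 FPKM for its partner in replicates 1 to 3, on 16 and 6 reads. The pair's rows therefore had opposite orders of the middle libraries, at counts where a few reads decide the order.

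**Figure D2:**
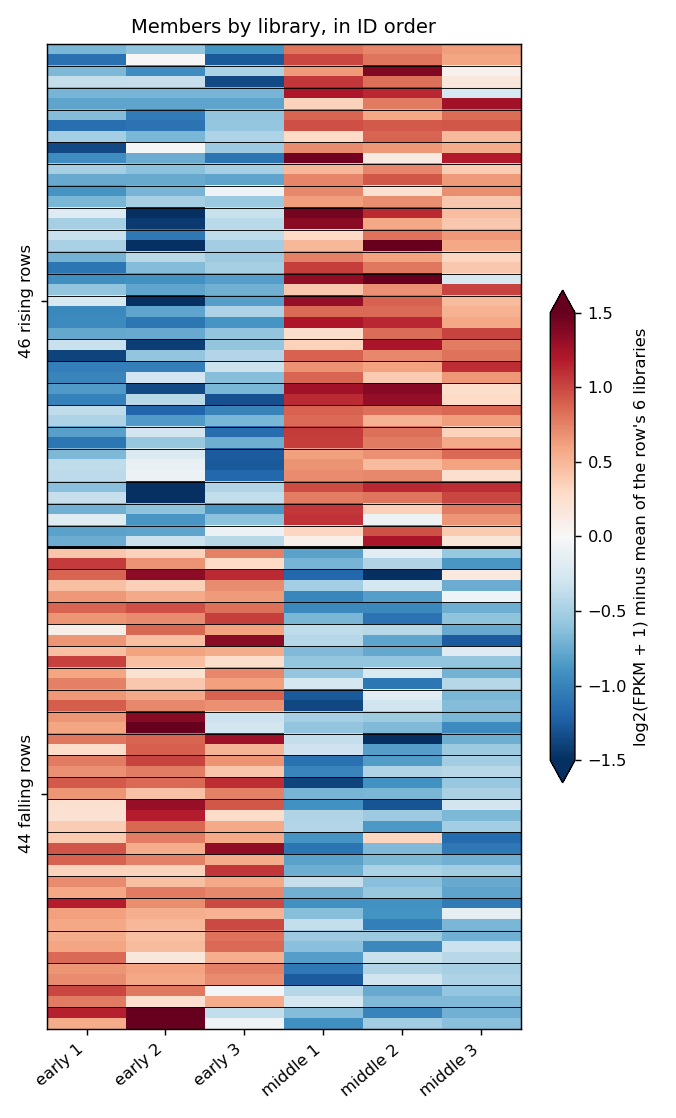
All 90 members (rows, in ID order; black lines part the runs and the thick line parts the 46 rising from the 44 falling rows) in the 6 libraries (columns); colour gives log2(FPKM + 1) minus the mean of the row's 6 libraries, with the scale ending at 1.5 in either direction. The split between stages follows from the rule, which also limits the spread within a stage, and several runs share a dark early replicate 2.

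Summed over the rows, the rising members held 0.0861, 0.0737 and 0.0852% of the FPKM sum in early replicates 1 to 3 and 0.235, 0.246 and 0.222% in middle replicates 1 to 3. The falling members held 0.322, 0.306 and 0.361% in early and 0.103, 0.121 and 0.124% in middle J2. The means were 0.0817 ± 0.00692% and 0.234 ± 0.0122% for the rising rows, and 0.330 ± 0.0284% and 0.116 ± 0.0114% for the falling rows (SD, n = 3). The falling sum thus lay above the rising sum in every early library and below it in every middle library. The shift of each sum between the stages restates the choice of the members.

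The comparison across all rows used limma on log2(FPKM + 1), with Benjamini-Hochberg adjustment over the 13142 rows that averaged 1 FPKM or more. It called 18.4% of these rows at an adjusted p under 0.05, 9.32% as higher and 9.1% as lower in middle J2. Of the 90 members, 87 reached the mean of 1 FPKM and 3 did not. Among the 46 rising members 45 were tested and 42 were called, and among the 44 falling members 42 were tested and 36 were called. The rule used this contrast, so these counts say nothing of their own. The median log2 fold change was 1.48 in the rising and -1.30 in the falling members tested, against -0.01 over all rows tested.

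The 9 members tested and not called were 3 rising and 6 falling rows. Of the falling ones, 4 formed 2 complete pairs in which early replicate 2 was the highest early library. In 1 of these pairs the rows stood at 2.97, 5.47 and 1.01 FPKM and at 1.92, 6.16 and 0.596 FPKM in early replicates 1 to 3. The other pair stood at 4.49, 6.31 and 0.896 FPKM and at 1.79, 4.63 and 0.832 FPKM. In each of the 4 rows every middle library was below 0.8 FPKM and early replicate 3 was the lowest early library.

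The level of a member was compared with that of its partner on log2(mean FPKM + 1) over the 6 libraries, a measure that the rule limits at both ends but does not compare between rows. It drops the 300 highest rows, and the 1 FPKM added in the ratio keeps out rows whose higher stage mean is below 1 FPKM. The median difference over the 49 member pairs was 1.30. It was 2.13 over the 98850 pairs of candidates with the same direction whose IDs are not consecutive, and 1.30 over the 9603 pairs of consecutive kept rows at or above 1 FPKM. With members chosen anew after leaving out 1 library, the member median was lower, at 0.924 to 1.06. The medians of the other sets are not given for that setting. With both rows at or above 5 FPKM the medians were 0.884 for 30 member pairs, 1.62 for non-consecutive candidate pairs and 1.06 for all consecutive pairs. These differences were not tested. The levels lay within 2-fold on this scale in 22 of 49 member pairs (44.9%), in 26.0% of the non-consecutive pairs and in 40.7% of all consecutive pairs. Differences over 8-fold were found in 10 member pairs (20.4%), in 35.3% of the non-consecutive and in 17.7% of all consecutive pairs.

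The ratio of mean FPKM between partners ran from 1.01 to 89.4 with a median of 2.58. In the pair with the widest gap the scarce row stood at 0.146, 0.149 and 0.226 FPKM in early replicates 1 to 3 and at 4.44, 5.42 and 0.828 FPKM in middle replicates 1 to 3. Its abundant partner stood at 97.3, 84.5 and 88.8 FPKM in the early libraries and 195, 238 and 299 FPKM in the middle ones. Middle replicate 3 was the lowest middle library of the scarce row and the highest of the abundant one. In 39 of the 49 pairs the same row was the higher one in all 6 libraries. Partners differed in recovered model length by a median factor of 2.004, and 3 pairs had lengths within a factor of 1.1 of each other.

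**Figure D3:**
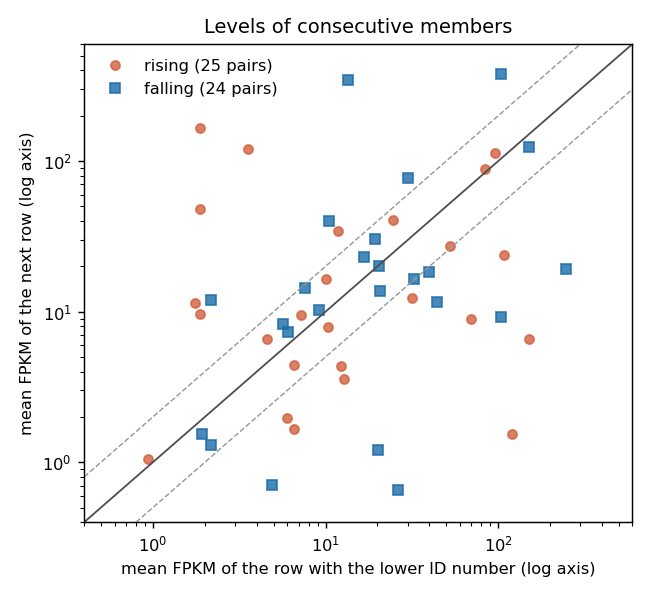
Mean FPKM over the 6 libraries of each member (x axis) and of the member with the next ID number (y axis), both on log axes; each point is 1 of the 25 rising or 24 falling pairs, the solid line marks equal levels and the dashed lines a 2-fold difference in FPKM. Points scatter on both sides of the line, and the widest gap is a factor of 89.4.

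Partners were next compared in how they varied between replicates. The demand for no overlap limits this spread within a row, but the rule does not compare it between rows. For each row the deviations of the 3 libraries from their stage mean were taken on log2(FPKM + 1), and Pearson's r of the 6 deviations was computed for each pair. All pairs share the same 6 libraries and only 4 deviations per row are free, so r is given as a description. The median r was 0.33 over the 49 member pairs. It was 0.05 over the non-consecutive pairs of candidates with the same direction and 0.14 over all consecutive kept rows at or above 1 FPKM. An r of 0.8 or more was reached by 13 member pairs (26.5%), against 6.87% of the non-consecutive and 9.21% of all consecutive pairs. With the same pairs and any 1 library left out, these shares were 22.4 to 36.7% for the member pairs and 11.5 to 12.9% for the non-consecutive pairs, the closest being 22.4 against 11.9% without middle replicate 1. An r below 0 was found in 13 member pairs as well (26.5%), against 47.1% and 41.9%. With 1 library left out, 12 to 19 of the 49 member pairs were below 0, the most without early replicate 2. The shares of the other sets below 0 are not given for that setting. No test of these differences was run, since pairs are not replicates.

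The median was 0.66 in the 25 rising pairs and 0.24 in the 24 falling pairs, and 8 and 5 of these reached 0.8. In the 30 member pairs with both rows at or above 5 FPKM the median r was 0.49 (whether depth has a part in this was not tested), against 0.08 in the non-consecutive candidate pairs and 0.16 in all consecutive pairs held to the same level. The named pairs were among the highest, with r of 0.91 for Minc08906 and Minc08907 and 0.99 for Minc15067 and Minc15068. Another rising pair with r of 0.99 stood at 40.8, 13.7 and 46.1 FPKM and at 57.1, 19.2 and 56.2 FPKM in early replicates 1 to 3, so that early replicate 2 was low in both rows. In middle replicates 1 to 3 these rows stood at 126, 140 and 138 FPKM and at 125, 127 and 146 FPKM.

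Both rows of a pair deviated most in the same library in 16 of the 49 pairs, which was early replicate 2 in 4 pairs and middle replicate 3 in 4. This count is not given for the other sets of pairs, so nothing is read from it about the members. With the same 49 pairs and 1 library left out, the median r lay between 0.36 and 0.61. The highest value, without early replicate 3, was more than 1.5 times that over all 6 libraries. The median of the non-consecutive pairs lay between 0.01 and 0.09. At the other end, some runs held no shared pattern. In a falling run of 3 the 2 pairs had r of -0.80 and -0.57. Its first row stood at 139, 191 and 164 FPKM in early replicates 1 to 3 and at 32.6, 14.5 and 82.9 FPKM in middle replicates 1 to 3. The row after it stood at 12.0, 11.2 and 14.6 FPKM in the early libraries and 5.69, 6.94 and 4.70 FPKM in the middle libraries. Middle replicate 3 was the highest middle library of the first row and the lowest of the next.

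**Figure D4:**
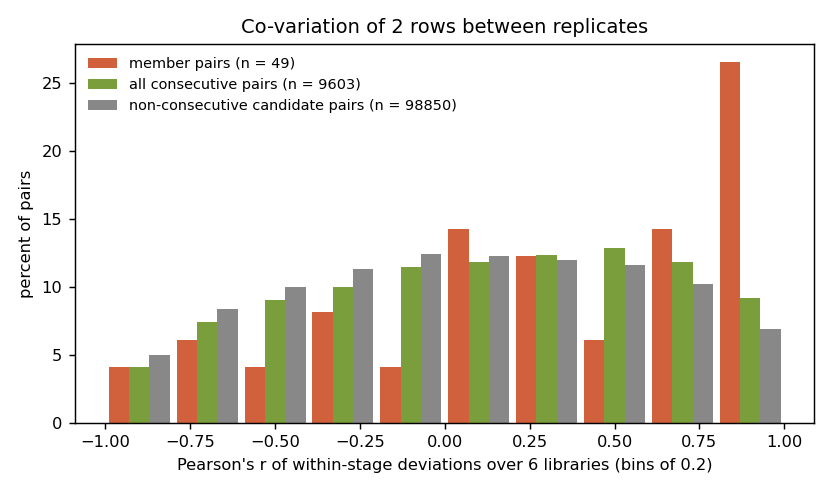
Share of pairs (y axis, percent) by Pearson's r of the within-stage deviations of the 2 rows over the 6 libraries (x axis, bins of 0.2), for the 49 member pairs, the 9603 pairs of consecutive kept rows at or above 1 FPKM and the 98850 non-consecutive pairs of candidates with the same direction. The bin above 0.8 holds 26.5% of the member pairs, more than in either other set.

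Replicate patterns were also counted over single members. Middle replicate 3 was the lowest middle library in 22 of the 46 rising members (47.8%) and in 46.6% of the 298 rising candidates without a partner. Among the 44 falling members it was the highest middle library in 12 (27.3%), against 46.0% of the 239 falling candidates without a partner. Early replicate 2 was the lowest early library in 45.5% of the falling members and 44.8% of the falling candidates without a partner. It was the highest early library in 36.4 and 36.0% of these. In the rising direction it was the lowest early library in 39.1% of the members and 38.6% of the candidates without a partner. A low or high early replicate 2 was thus about as common outside the runs. Whether the sets differ in these shares was not tested.

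The surroundings of a candidate were followed over ID distances of 1 to 10, of which the rule used the first. At a distance of 1, 98 of the 1189 rows beside candidates were candidates with the same direction (8.24%), counted from both rows of each pair, which restates the members. Candidates with the opposite direction made up 16 of the 1189 (1.35%). At a distance of 2, 58 of 1191 rows (4.87%) had the same direction and 26 (2.18%) the opposite one. These 58 stand for 29 pairs of candidates, of which 8 lie inside a run of members. Outside the runs, 42 of 1191 rows (3.53%) had the same direction. At a distance of 3 the shares were 2.87 and 3.04%, and at 4 they were 3.68 and 2.67%.

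From a distance of 5 to 10 the share with the same direction lay between 0.672 and 2.53%, and the share with the opposite direction between 1.51 and 3.19%. Both ranges held the 1.9 and 1.56% that rising and falling candidates made up among all rows kept. Over distances of 2 to 10 together, 258 of 10709 rows (2.41%) were candidates with the same direction. These 258 include 16 rows at a distance of 2 that lie inside the runs of members. Candidates with the opposite direction made up 2.22% of the rows over distances of 1 to 10. Whether the shares for the same and the opposite direction differ was not tested. The share with the same direction lay above both overall shares at distances of 1 to 4, 8 and 10, and the share with the opposite direction at 2 to 5 and 7 to 9.

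**Figure D5:**
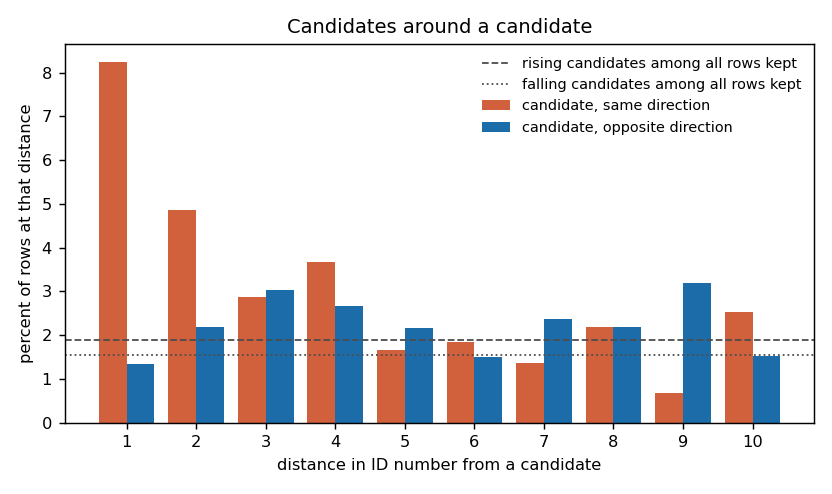
Percent of the rows at an ID distance of 1 to 10 from a candidate (x axis) that are themselves candidates with the same or the opposite direction (bars); the dashed and dotted lines give the 1.9% and 1.56% of all rows kept that are rising and falling candidates. The bar at distance 1 for the same direction, 8.24%, restates the choice of the members, and the bar at distance 2, 4.87%, does so in part, with 3.53% outside the runs of members.

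The fold changes of all kept rows, candidates or not, were compared by distance as well. Across pairs of kept rows at or above 1 FPKM, Pearson's r of the log2 fold change was 0.21 at an ID distance of 1 (9603 pairs), 0.07 at a distance of 2 and 0.02 at a distance of 3. Without the 90 members it was 0.19 at a distance of 1 (9508 pairs) and 0.07 at 2. These values are across gene rows, which are not independent replicates, and all of them share the same 6 libraries. The likeness of neighbouring IDs was thus weak over the kept rows, and it stood at nearly the same value with the members left out.

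The IDs directly before and after the 41 runs gave 82 places. Of these, 4 held no row among those kept, 4 a row listed at 0 in all libraries and 22 a row with a mean below 1 FPKM. In the 52 places with a row at or above 1 FPKM, the ratio in the direction of the run had a median of 1.07, and 34 rows (65.4%) were on the side of the run. Among all kept rows at that level 49.3% had a ratio above 1. By direction, 15 of 25 rows beside rising runs and 19 of 27 beside falling runs were on the side of the run. The rule itself keeps candidates with the same direction out of these places. In 18 of the 52 the stages did not overlap and the ratio was under 2 in the direction of the run. These were 6 of 25 beside rising and 12 of 27 beside falling runs, against 14.4% of all kept rows at that level in the rising and 16.8% in the falling direction. In 1 place, beside a rising pair, the ratio was 15.7 in the direction of the run.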

How the data were processed

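The deposited table holds FPKM values, 1 column per library, per the file headers; CASAVA and TopHat2 were used by the authors, per the submitters' processing notes. Their versions, the counter, the build, the annotation and the handling of strand and multiple matches: not given in the sources used here. A further 16 columns without a name were not used. FPKM as deposited were tested on log2(FPKM + 1) over rows averaging 1 FPKM or more with limma 3.58.1 (stage as the only term, intensity trend, two-sided) in R 4.3.3, Benjamini-Hochberg threshold 0.05. Whole reads and gene-model lengths were recovered from the FPKM steps. All 17197 rows above 0 came out whole within 0.001, which the search itself favours. Where the counts of a row share a common factor, its counts and its length both come out too low. The recovered reads covered 99.64 to 99.66% of the denominators. The limma fit, the recovery of reads and the membership rule were tested on simulated data. The members, the lists and the tests were chosen with earlier results of these data known. The rows named by ID are the rising and the falling pair, both rows called, whose less abundant row had the highest mean. Other rows are described without ID. Alternatives were other pseudocounts, filters, scalings and weights, a replicate block, each library left out, and other limits of the rule. Limma voom on the recovered reads (rows with at least 10 reads), the leave-out of libraries with the pairs held fixed, log2 reads as a level, and pairs at or above 5 FPKM were added after seeing the data. Python 3.11.15 with pandas 2.3.3 and numpy 2.4.6 made the tables.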

Additional observations from a re-analysis of the deposited data

How the results depend on the processing

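The number of members follows the limits of the rule. It was 90 as defined, 137 with 0.1 in place of 1 FPKM added in the ratio (61 of the 90 kept), 177 with no upper limit, 394 from a ratio of 1.5, 57 among rows at or above 5 FPKM, 100 with the 300 highest rows kept and 97 after rescaling to a common FPKM sum (level difference 1.09 and within-stage r 0.47 there). Leaving out a library gave 97 to 124 members, of which 63 to 69 were among the 90. Pairs with the same direction, which the rule selects, outnumbered those with opposite directions under each of these settings. The settings draw on the same libraries and the same contrast, so they are not independent of each other. The median level difference of partners (1.30) was 1.08 with 0.1 added, 1.48 with the highest rows kept, 0.884 at or above 5 FPKM, 1.95 on log2 reads and 0.924 to 1.06 with a library left out. The median within-stage r (0.33) was 0.25 with 0.1 added, 0.40 with the highest rows kept, 0.51 with no upper limit, 0.49 at or above 5 FPKM and 0.32 to 0.52 with a library left out and members chosen anew. The highest came without early replicate 3. The share of candidates with the same direction at distances of 2 to 10 (2.41%) was 3.20% with 0.1 added, 3.15% with no upper limit, 5.79% from a ratio of 1.5, 3.06% at or above 5 FPKM and 2.48 to 3.06% with a library left out. The candidates numbered 893, 839, 1772, 408 and 660 to 825 there, in place of 627. Their shares among all rows kept are not given for these settings, so the values are not compared with each other. The middle-minus-early difference in the rising members' share of the FPKM sum (0.153 percentage points) was 0.137, 0.352, 0.184, 0.667 and 0.106 with 0.1 added, no upper limit, the highest rows kept, a ratio of 1.5 and 5 FPKM, and 0.108 to 0.207 with a library left out. The limma calls over all rows (2421) were 1362 to 2263 with a library left out, where fewer libraries enter each fit. The fewest came without early replicate 1 (1456), early replicate 3 (1503) or middle replicate 1 (1362). Without early replicate 2, middle replicate 2 or middle replicate 3 the calls numbered 1806, 2263 and 2207. Calls among the members (78 of 87 fitted, beside 18.4% of all rows tested) were 59 to 74 of 86 to 88 fitted with a library left out. They were 65 to 81 under the other settings. The 65 came from the filter of 5 FPKM, under which only 68 members were fitted. Voom called 76 of 88 fitted. No member fitted changed its sign under any of the 16 limma alternatives, which the gaps between the stages largely fix. Rescaling to a common FPKM sum changed the rises among all calls from 50.6% to 39.7%, and 40 rising and 37 falling members were called under it. A replicate block gave 2187 calls, 77 of them members, and Minc08907 had an adjusted p of 0.0505 (limma; up to that value over its 16 alternatives). Libraries with the same number had deviations that correlated at 0.005, 0.089 and 0.120 for replicates 1 to 3. Early and middle libraries with different numbers correlated at -0.153 to 0.077. Whether replicates were paired by number was not tested. Depth limits the low members, 7 of which had under 30 reads.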

Other observations

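Of the falling pairs, 2 with early replicate 2 as their highest library resembled each other in model length, and were singled out after their values were seen. In 1 pair the models had 1458 and 1353 bases, in ID order, and in the other 1350 and 1455 bases. They rested on 81 and 68 early reads in the first pair and on 92 and 62 in the other, with 4 to 18 middle reads per row. The mean levels over the 6 libraries were 1.92 and 1.53 FPKM in the first pair and 2.16 and 1.30 FPKM in the other, and the within-stage r of the partners was 0.98 and 0.82. Whether these rows share sequence was not tested.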
